A study of Mus musculus with 29 samples.

Results

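MHC and antigen presentation genes were examined in RNA-Seq data from hematopoietic stem and progenitor cells of 5A3+/del and wild-type (WT) mice. They were taken by symbol: every gene whose symbol begins with H2-, the mouse designation of the major histocompatibility complex (MHC), together with B2m, Cd74, Ciita, Nlrc5, Tap1, Tap2 and Tapbp. This gave 48 of the 30025 genes measured, of which 34 belong to class I, 12 to class II and 2 (H2-Ke2 and H2-Ke6) carry an H2 name only through their position. 5A3+/del mice carry a heterozygous germ line deletion of an interval of chromosome band 5A3, made in embryonic stem cells and backcrossed to C57BL/6J, so that every cell of the animal and not only the blood carries it. Bone marrow was sorted for c-kit+ lineage- Sca-1+ CD41- CD48- cells, which were split by CD150 into CD150hi HSC, CD150lo HSC and CD150neg multipotent progenitors (MPP; the sample labels call them HSC). Each of 5 WT and 5 5A3+/del C57BL/6J mice, aged 12.42 to 13.85 weeks, gave 1 library per population, except that there were 4 libraries of 5A3+/del CD150neg MPP, which makes 29. Neither genotype received a treatment. Estimated from the steps between low FPKM values, the libraries held 21229623 to 38797889 fragments (median 26967246). Values are FPKM, which divide the fragments of a gene by its length and by the depth of the library, so that levels of different genes can be compared.

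MHC class I molecules sit on nearly all nucleated cells and show peptides from the cell's own proteins to CD8 T cells. A heavy chain (H2-K1 or H2-D1 in this strain) pairs with B2m, the transporter formed by Tap1 and Tap2 brings peptides into the endoplasmic reticulum, tapasin (Tapbp) bridges the transporter and the empty heavy chain, and Nlrc5 activates transcription of these genes. MHC class II molecules present peptides from the endocytic route to CD4 T cells and are best known from dendritic cells, B cells and macrophages. Their chains (H2-Aa with H2-Ab1) are escorted by the invariant chain Cd74, H2-DM (H2-DMa with H2-DMb1 or H2-DMb2) exchanges the invariant chain fragment for peptide, H2-DO (H2-Oa with H2-Ob) inhibits H2-DM, and Ciita is the transactivator of the class. C57BL/6 mice do not form the I-E class II molecule because their Ea gene is defective, although its beta chain gene H2-Eb1 is intact.

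All 41 H2 genes lie on chromosome 17, between bases 34052844 and 37620497 of mm9, and none of the 47 genes with a matched annotation lies on chromosome 5, where the deletion is. The proximal promoters of class II genes are known for conserved boxes that a multiprotein complex binds before Ciita is recruited to it. The sequences below were chosen because their genes share the marked letters, while H2-Ob and H2-Aa differed in opposite directions between populations of WT mice. They are the 150 bases before the gene start of the H2-DO genes, of H2-Aa and of H2-Eb1. They come from RefSeq promoters of GRCm38.p6, and their positions in mm9 were found by an exact match: H2-Ob at chr17:34375700-34375849 (plus strand), H2-Oa at chr17:34229174-34229323 (plus strand), H2-Aa at chr17:34424769-34424918 (minus strand) and H2-Eb1 at chr17:34442662-34442811 (plus strand). Capitals mark GCAAC and, further towards the gene, ATTGG.
H2-Ob: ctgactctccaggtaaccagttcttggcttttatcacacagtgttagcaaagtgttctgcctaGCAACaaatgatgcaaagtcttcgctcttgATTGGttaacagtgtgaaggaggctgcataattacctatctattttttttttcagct
H2-Oa: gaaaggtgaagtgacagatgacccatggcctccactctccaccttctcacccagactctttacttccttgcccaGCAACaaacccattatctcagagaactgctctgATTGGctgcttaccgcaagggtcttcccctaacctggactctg
H2-Aa: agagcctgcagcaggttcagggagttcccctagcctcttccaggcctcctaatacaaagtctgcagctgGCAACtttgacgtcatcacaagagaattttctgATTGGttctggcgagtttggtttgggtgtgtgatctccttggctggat
H2-Eb1: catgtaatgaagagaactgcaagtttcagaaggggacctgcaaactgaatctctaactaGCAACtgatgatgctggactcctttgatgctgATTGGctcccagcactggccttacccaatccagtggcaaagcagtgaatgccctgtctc

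In H2-Ob the first letter of GCAAC lay 87 bases and that of ATTGG 57 bases before the gene start. The corresponding distances were 76 and 43 bases in H2-Oa, 81 and 48 in H2-Aa, and 91 and 59 in H2-Eb1. A promoter was counted as holding the pair when both words lay on the strand of the gene, with 25 to 40 bases from the start of one to the start of the other, a window chosen after these promoters had been read. Of the 12 class II genes, 8 had a promoter in the table (300 bases each, from 250 before to 50 after the start), and 5 of these held the pair: the genes above and H2-Eb2. None of the 24 class I genes with a promoter held it, against 128 of all 32851 promoters (0.39%). Alone and on either strand, GCAAC was found in 35.2% and ATTGG in 37.4% of all promoters. H2-DMa, H2-DMb1 and H2-DMb2 did not have these letters as a pair in the window searched.

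The plot of mean levels shows how far apart the members lie. Of the 48 genes, 29 reached 1 FPKM in at least 4 libraries and were tested, 18 of class I, 10 of class II and H2-Ke2. B2m was the highest, at rank 7 of all genes by mean FPKM in each of the 6 groups. H2-K1 ranked between 45 and 58 and H2-D1 between 118 and 146. Summed, H2-K1 and H2-D1 were at 9.7 to 23.2 times the level of H2-Aa, H2-Ab1 and H2-Eb1 in the same library (median 16.2, n = 29).

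**Figure D1:**
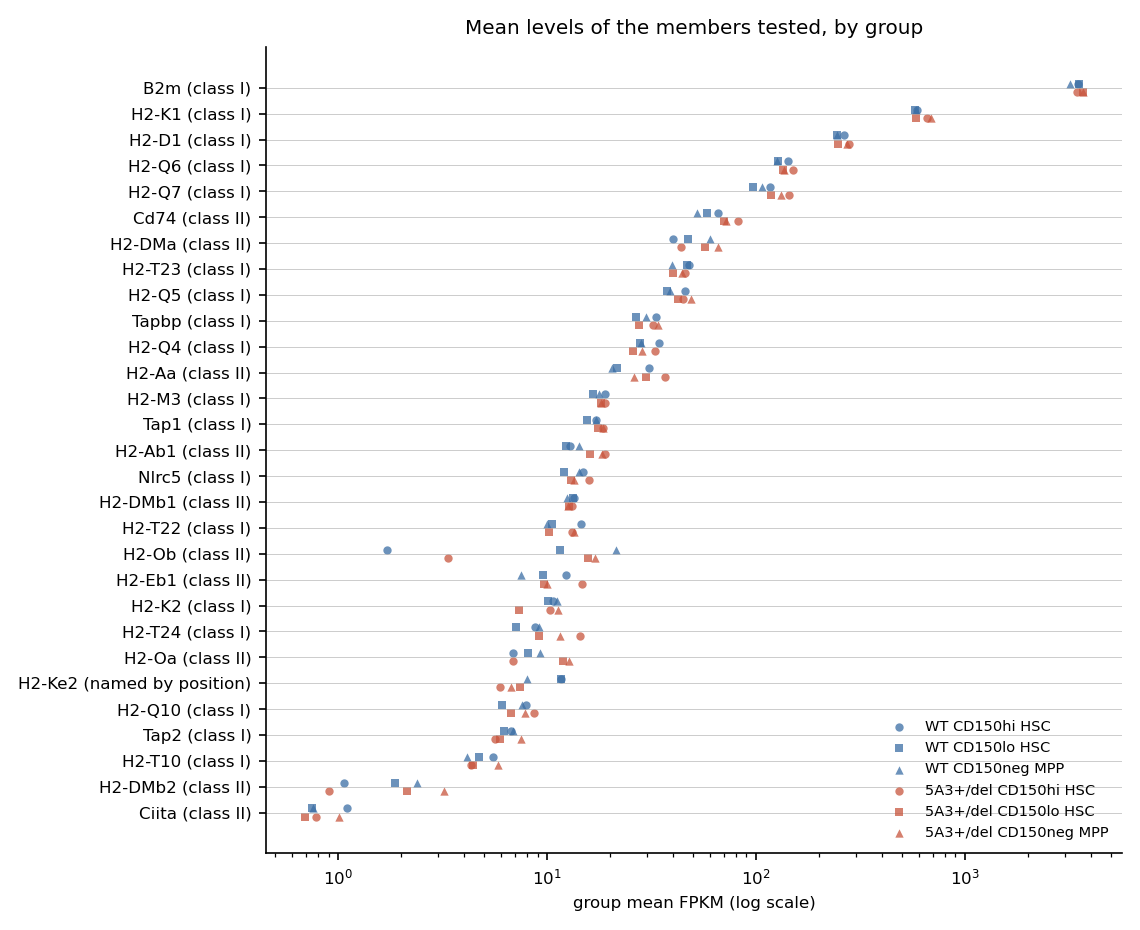
Group mean FPKM (log axis) of the 29 members tested, ordered by level; colours mark genotype and symbols mark population. B2m, H2-K1 and H2-D1 lead in all groups, and the group means of H2-Ob run from 1.72 to 21.3 FPKM.

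Class I was expressed at a high level in all 3 populations of both genotypes. B2m, the light chain shared by class I molecules, was at 3825, 3175, 3706, 3474 and 3281, at 4281, 3648, 3356, 3223 and 3158 and at 3141, 3326, 3336, 3180 and 3008 FPKM in WT mice 1 to 5, for the CD150hi, CD150lo and CD150neg sorts in turn. In 5A3+/del mice it was at 3455, 3471, 3429, 3551 and 3264, at 3904, 3822, 3781, 3404 and 3482 and at 4069, 3514, 3701 and 3392 FPKM (mice 1 to 4 for the last population). In the comparisons made, the groups overlapped with 1 exception: the 4 5A3+/del CD150neg MPP libraries lay above the 5 WT ones as deposited. The quantile normalized difference was 0.02 on the log2 scale (95% interval -0.19 to 0.24). Quantile normalization sets values by rank, and B2m was at rank 7 in both groups, so this difference cannot show whether its level shifted.

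H2-K1, a classical heavy chain, was at 648, 645, 583, 525 and 545 FPKM in CD150hi HSC, 658, 572, 531, 634 and 497 in CD150lo HSC and 699, 639, 562, 525 and 498 in CD150neg MPP of WT mice 1 to 5. The same populations of 5A3+/del mice had 666, 724, 718, 566 and 609, then 617, 555, 583, 586 and 568, then 869, 687, 653 and 553 FPKM. The highest single library was CD150neg MPP of 5A3+/del mouse 1, and the groups overlapped throughout. H2-D1, the other classical heavy chain of this strain, lay lower, with 264, 272, 262, 246 and 281 FPKM in CD150hi HSC, 291, 251, 217, 259 and 196 in CD150lo HSC and 274, 264, 240, 241 and 208 in CD150neg MPP of WT mice. For 5A3+/del mice H2-D1 read 326, 280, 290, 231 and 266 in CD150hi HSC, 249, 262, 245, 239 and 236 in CD150lo HSC and 362, 254, 256 and 215 in CD150neg MPP. No pair of groups was set apart in this gene either.

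The loading genes and the transcriptional activator Nlrc5, whose identifier is listed as a long intergenic non-coding RNA, were lower and even. Group means of Tap1 lay between 15.5 and 18.6 FPKM, those of Tap2 between 5.63 and 7.49, those of Tapbp between 26.6 and 34, and those of Nlrc5 between 12.1 and 15.8. Among the other class I chain genes, H2-Q6 (126 to 151 FPKM) and H2-Q7 (96.5 to 144 FPKM) led. Below them lay H2-Q5 (37.6 to 49 FPKM) and H2-T23 (39.7 to 47.6 FPKM), which encodes the Qa-1 molecule known to be read by NK cell receptors. The identifiers listed as H2-Q5, H2-Q1 and H2-Q3 carry the names H2-Q8, H2-Q2 and Gm6571 in the annotation, so which gene these values belong to is uncertain. Of the class I genes tested, H2-Q5 and H2-K2 are listed as pseudogenes and H2-T10 as a polymorphic pseudogene. Many class I genes are near-identical copies, and how shared reads were assigned is not given in the sources used here, so the split between members such as H2-Q6 and H2-Q7 is uncertain. Annotated genes overlap B2m (Patl2), Tap2, Tapbp, H2-Q4, H2-T22, H2-T23 and H2-T24, and the library kit does not mark strand.

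Class II was present at lower levels. Cd74, the invariant chain, was at 127, 44.5, 52.4, 50.7 and 55.6 FPKM in CD150hi HSC, 125, 39.6, 53.1, 46.3 and 28.1 in CD150lo HSC and 71.9, 69.5, 31.3, 54.3 and 35 in CD150neg MPP of WT mice 1 to 5. For 5A3+/del mice Cd74 read 111, 112, 64.9, 59.1 and 62.1 in CD150hi HSC, 109, 53.6, 61.1, 64 and 62.4 in CD150lo HSC and 109, 76.8, 60.3 and 40 in CD150neg MPP. Mouse 1 stood high in both genotypes, and all groups overlapped. H2-Ab1, the beta chain of the class II molecule of this strain, was at 20.5, 9.42, 12.8, 9.12 and 12.5 FPKM in CD150hi HSC, 18.5, 9.83, 11.4, 11.5 and 10.2 in CD150lo HSC and 19.2, 14.7, 15.7, 9.65 and 11.6 in CD150neg MPP of WT mice. The values of H2-Ab1 in 5A3+/del mice were 29.5, 25, 14.1, 12.2 and 14.3, 12, 24.2, 15.2, 16.6 and 12.4 and 23.5, 20.3, 16 and 13.3 FPKM in the same order of populations. H2-Ab1 shares 88 bases with H2-Aa on the other strand.

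H2-Eb1, the beta chain left without a partner in C57BL/6, was at 9.46, 19.3, 12, 13.3 and 7.55 FPKM in CD150hi HSC, 18.8, 7.48, 7.71, 7.51 and 6.3 in CD150lo HSC and 13.5, 3.37, 8.95, 5.92 and 5.79 in CD150neg MPP of WT mice. Its values in 5A3+/del mice were 27, 11.4, 13.4, 10 and 11.4, 12.4, 5.84, 12.5, 6.11 and 11.2 and 11.8, 13.5, 7.24 and 7.33 FPKM. They overlapped between all groups. Ciita, the transactivator, lay near the lower limit of the table, at 1.02, 0.306, 0.619, 2.55 and 0.992 FPKM in CD150hi HSC, 0.504, 0.494, 0.972, 1.04 and 0.72 in CD150lo HSC and 1.15, 0.893, 0.312, 0.796 and 0.638 in CD150neg MPP of WT mice. Ciita in 5A3+/del mice was at 0.158, 0.843, 0.959, 1.07 and 0.875, 0.541, 0.674, 0.783, 0.775 and 0.693 and 0.893, 1.03, 1.27 and 0.845 FPKM. Its identifier had no match in the annotation, so the fragments behind these values are unknown. The 5A3+/del CD150lo HSC libraries lay below the CD150neg MPP libraries of that genotype, and the other groups overlapped. H2-DMb1 had group means of 12.5 to 13.5 FPKM.

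The cells and their labels were checked by markers. Slamf1, which encodes CD150, averaged 14.4 (WT) and 16.1 FPKM (5A3+/del) in CD150hi HSC, 1.62 and 0.957 in CD150lo HSC, and 0.146 and 0.0698 in CD150neg MPP. Kit was at 111 to 203 FPKM and Hlf at 164 to 303 FPKM over all libraries. Markers of cells for which class II is best known were unevenly present. Of the B cell genes, Ms4a1 reached at most 0.0441 FPKM in any library, Pax5 0.326 and Cd79a 2.85, while Cd79b was at 5.43 to 31.7 FPKM. Of the dendritic cell genes, Itgax reached at most 0.482 FPKM, Siglech 0.348, Xcr1 0.321, Zbtb46 2.73 and Cd209a 3.09. The 8 monocyte and macrophage genes summed to 161 to 284 FPKM, most of it Lyz2, which was at 148 to 254 FPKM in every library. The others reached at most 16.3 FPKM (Itgam), 13.8 (C1qb), 7.32 (C1qc), 5.74 (C1qa), 2.85 (Cd14), 1.68 (Emr1) and 1.59 (Csf1r). In these bulk libraries a change in the number of cells that carry an RNA cannot be told apart from a change of RNA per cell.

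Between the populations, 6 members passed the threshold in at least 1 comparison. In WT mice, CD150hi HSC against CD150lo HSC gave 1 of 29 members past the threshold (adjusted p under 0.05, limma; 3.53% of the 15409 genes tested passed), and CD150hi HSC against CD150neg MPP gave 4 of 29 (10.0% of all genes). The corresponding counts in 5A3+/del mice were 2 of 29 (3.18% of all genes) and 4 of 29 (6.16% of all genes). CD150lo HSC against CD150neg MPP gave 0 of 29 in WT mice (0.188% of all genes), with 2 at an unadjusted p under 0.05 (8.75% of all genes), and 0 of 29 in 5A3+/del mice (0.0389% of all genes), with 0 at an unadjusted p under 0.05 (4.95% of all genes). By class, the calls were H2-Ob, H2-Oa, H2-DMa, H2-DMb2 and H2-Aa in class II, and H2-T22 in class I. The median log2 difference between CD150hi HSC and CD150neg MPP was 0.10 for class I in WT and 0.08 in 5A3+/del mice, and -0.01 and -0.05 for class II, beside -0.01 and -0.00 over all genes.

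H2-Ob, the beta chain of the H2-DM inhibitor H2-DO, had the smallest p of the members in all comparisons with CD150hi HSC between populations. In WT mice 1 to 5 it was at 0.394, 0.937, 3.14, 2.23 and 1.91 FPKM in CD150hi HSC, 9.19, 9.51, 11.2, 13.1 and 14.5 in CD150lo HSC and 18.8, 22.7, 22.2, 22.9 and 19.8 in CD150neg MPP. The 5A3+/del mice had 2.92, 3.9, 4.04, 3.65 and 2.18 FPKM in CD150hi HSC, 19.3, 21.8, 13.4, 9.28 and 14.5 in CD150lo HSC and 15.4, 19.8, 18.4 and 14.5 in CD150neg MPP. Every CD150hi HSC library lay below every library of the other populations, and in WT mice the 3 populations did not overlap at all. All 5 WT mice rose from CD150hi HSC over CD150lo HSC to CD150neg MPP, as did 2 of the 4 5A3+/del mice with 3 populations. Even the lowest library rested on 32 fragments.

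On the quantile normalized log2(FPKM + 1) scale, H2-Ob was lower in CD150hi HSC than in CD150lo HSC by -2.27 (SE 0.21, adjusted p = 5.64e-08, limma; lower in 5 of 5 mice) in WT and by -1.90 (SE 0.21, adjusted p = 1.12e-06; 5 of 5 mice) in 5A3+/del mice. Against CD150neg MPP the difference was -3.05 (SE 0.21, adjusted p = 8.12e-11, limma; 5 of 5 mice) in WT and -2.01 (SE 0.23, adjusted p = 6.09e-07; 4 of 4 mice) in 5A3+/del mice. From CD150lo HSC to CD150neg MPP it was -0.79 in WT (SE 0.21, unadjusted p = 0.00105, adjusted p = 0.143, limma; lower in 5 of 5 mice), which did not pass, and -0.11 (95% interval -0.57 to 0.36; lower in 2 of 4 mice) in 5A3+/del mice. These 4 calls held under each of the 20 alternatives tried. A gene model on the same strand, Gm20506, shares 1208 bases with H2-Ob and was at 0 to 6.5 FPKM.

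**Figure D2:**
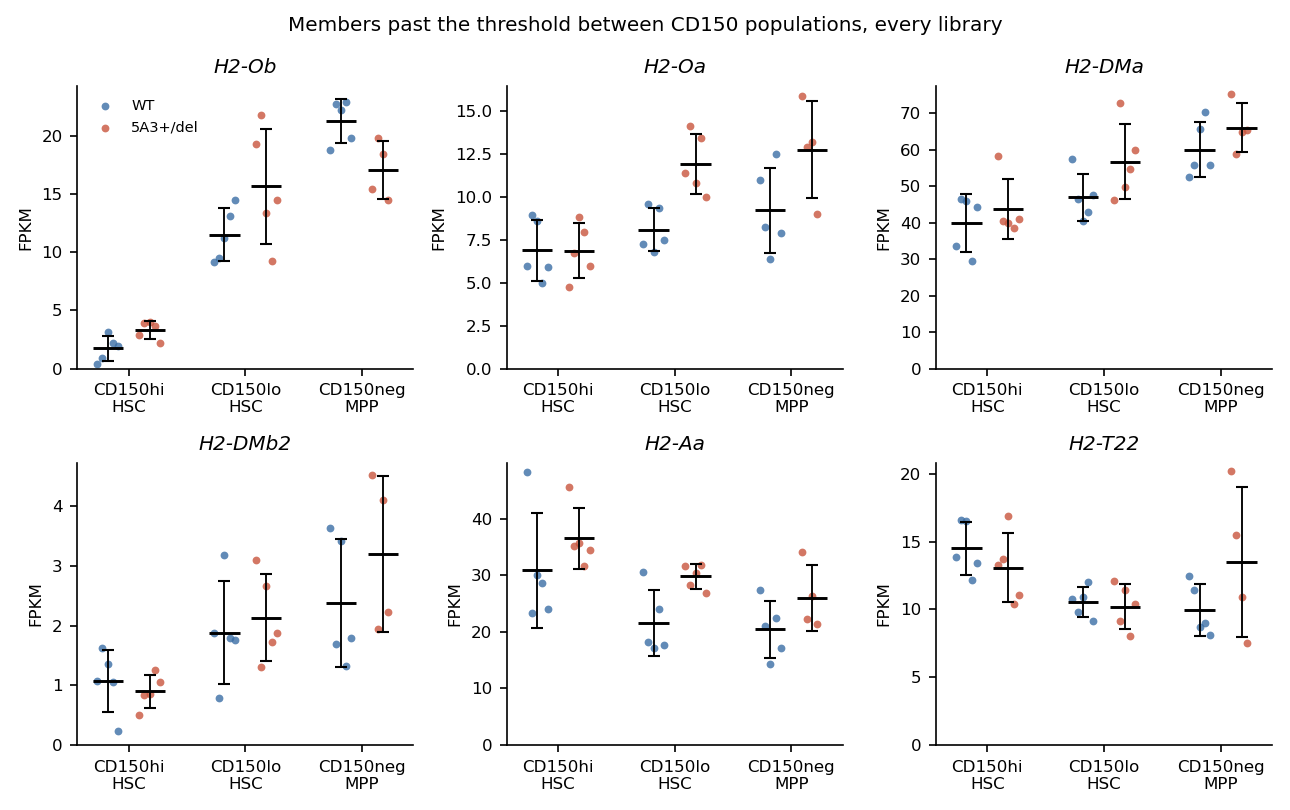
FPKM as deposited of the 6 members past the threshold in at least 1 comparison of populations, by library; points are mice, horizontal bars group means and whiskers SD (n = 5, and n = 4 for 5A3+/del CD150neg MPP). H2-Ob rises from CD150hi HSC (at most 4.04 FPKM) to the other populations (at least 9.19 FPKM) without overlap, while H2-Aa goes the other way with overlap.

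H2-Oa, the alpha chain of the same heterodimer, had a narrower range. Its values were 5.97, 8.93, 8.58, 4.97 and 5.94 FPKM in CD150hi HSC, 7.28, 9.57, 6.79, 9.34 and 7.48 in CD150lo HSC and 11, 8.27, 6.4, 12.5 and 7.9 in CD150neg MPP of WT mice 1 to 5, where the populations overlapped. The 5A3+/del mice had 4.75, 6.74, 8.82, 7.95 and 5.98, 11.4, 14.1, 10.8, 13.4 and 9.98 and 15.9, 12.9, 13.2 and 9 FPKM, where CD150hi HSC lay below both other populations. H2-Oa was lower in 5A3+/del CD150hi HSC than in CD150lo HSC by -0.73 (SE 0.17, adjusted p = 0.0103, limma; 5 of 5 mice) and than in CD150neg MPP by -0.76 (SE 0.18, adjusted p = 0.00718; 4 of 4 mice). In WT mice these differences were -0.27 (adjusted p = 0.522, limma) and -0.35 (adjusted p = 0.227). Whether the genotypes differ in this was tested directly and did not pass (-0.46, 95% interval -0.96 to 0.03, adjusted p = 0.999 for the step to CD150lo HSC). Without 5A3+/del mouse 1 both calls were lost, the second at an adjusted p of 0.11, and the first was also lost without mouse 2 (adjusted p = 0.0846). The second was also lost with only the groups compared (adjusted p = 0.0757, limma).

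The RNAs of the H2-DO chains were present in unlike proportions over the populations, and the proteins were not measured here. The ratio of H2-Ob to H2-Oa FPKM in CD150hi HSC was 0.262 ± 0.168 for WT mice and 0.495 ± 0.101 for 5A3+/del mice (SD, n = 5 each). It was 1.45 ± 0.363 and 1.32 ± 0.39 in CD150lo HSC of the same genotypes (n = 5 each), and 2.45 ± 0.713 (n = 5) and 1.38 ± 0.287 (n = 4) in CD150neg MPP. The highest ratio in any CD150hi HSC library was 0.615, and the lowest in any other library was 0.694.

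H2-DMa, the alpha chain of the peptide exchange factor H2-DM, was at 33.7, 46.5, 45.9, 29.4 and 44.3 FPKM in CD150hi HSC, 57.4, 46.5, 40.4, 43 and 47.6 in CD150lo HSC and 52.5, 55.8, 65.8, 70.3 and 55.9 in CD150neg MPP of WT mice. In 5A3+/del mice it was at 58.3, 40.5, 39.8, 38.5 and 41.1, 46.3, 72.7, 49.9, 54.7 and 59.8 and 75.2, 58.8, 65 and 65.4 FPKM. CD150hi HSC lay below CD150neg MPP in every mouse of both genotypes, and these groups did not overlap. The log2 difference was -0.55 (SE 0.14, adjusted p = 0.00829, limma) in WT and -0.54 (SE 0.15, adjusted p = 0.0225) in 5A3+/del mice. The WT call was lost without WT mouse 4 (adjusted p = 0.106), and the 5A3+/del call without mouse 3, 4 or 5 and with mouse as a replicate block (adjusted p = 0.0604, limma). Both calls were also lost with only the groups compared (adjusted p = 0.0684 in WT and 0.127 in 5A3+/del mice, limma).

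H2-DMb2, one of the beta chains that pair with it, was scarce, with 1.07, 1.63, 1.35, 1.05 and 0.241 FPKM in CD150hi HSC, 1.88, 0.781, 3.19, 1.8 and 1.76 in CD150lo HSC and 3.64, 1.7, 3.42, 1.32 and 1.8 in CD150neg MPP of WT mice. In 5A3+/del mice the values were 0.505, 0.845, 0.861, 1.25 and 1.05, 3.1, 1.31, 2.67, 1.73 and 1.87 and 4.52, 1.95, 4.11 and 2.23 FPKM, rising in that order in each of the 4 mice with 3 populations. The difference between CD150hi HSC and CD150neg MPP was -1.04 (SE 0.28, adjusted p = 0.0191, limma) in 5A3+/del and -0.64 (SE 0.26, adjusted p = 0.128) in WT mice, lower in 5 of 5 WT mice. The WT difference passed after rescaling without mitochondrially encoded genes (-1.07, adjusted p = 0.0418, limma). The 5A3+/del call was lost without 5A3+/del mouse 1 or mouse 3 (highest adjusted p 0.172). H2-DMb1 and H2-DMb2 are close copies, so reads may be split between them.

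H2-Aa, the alpha chain of the class II molecule itself, went the opposite way. WT mice 1 to 5 had 48.2, 23.3, 30, 28.7 and 24.1 FPKM in CD150hi HSC, 30.6, 18.2, 17.2, 24.1 and 17.7 in CD150lo HSC and 27.4, 21.1, 14.3, 22.4 and 17.1 in CD150neg MPP. The 5A3+/del mice had 45.6, 35.2, 35.6, 31.6 and 34.4, 31.6, 28.3, 30.4, 31.8 and 26.8 and 34.1, 22.3, 26.3 and 21.3 FPKM. CD150hi HSC lay above CD150neg MPP in each of the 5 WT and 4 5A3+/del mice, although the groups overlapped. The log2 difference was 0.61 (SE 0.18, adjusted p = 0.0267, limma) in WT and 0.54 (SE 0.19, adjusted p = 0.094) in 5A3+/del mice. The 5A3+/del difference passed without WT mouse 1 (adjusted p = 0.0169, limma). With mouse as a replicate block both passed (adjusted p = 0.00118 and 0.0055, limma), as did CD150hi against CD150lo HSC in WT mice (0.48, adjusted p = 0.0154 with the block and 0.172 without), which raised the count of that comparison from 1 to 2. The WT call was lost without WT mouse 3, 4 or 5, with FPKM as deposited, with only the groups compared, and after rescaling without mitochondrially encoded genes (0.40, adjusted p = 0.204), which moved the median of all genes by -0.20 in this comparison. Of the other chains, H2-Eb1 differed by 0.73 and 0.50 and Cd74 by 0.31 and 0.28 in WT and 5A3+/del mice. H2-Ab1, which pairs with H2-Aa, differed by -0.11 and 0.04. None of these passed the threshold in the main fit.

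H2-T22, a nonclassical class I chain known as a ligand of a subset of gamma delta T cells, was the only class I call of the main fit. It was at 13.9, 16.6, 16.5, 12.2 and 13.4 FPKM in CD150hi HSC, 10.8, 9.83, 10.9, 12 and 9.15 in CD150lo HSC and 12.5, 11.4, 8.71, 9.01 and 8.14 in CD150neg MPP of WT mice. In 5A3+/del mice it was at 13.3, 13.7, 16.9, 10.4 and 11.1, 12.1, 9.12, 11.4, 8.02 and 10.4 and 20.2, 15.5, 10.9 and 7.5 FPKM, with the highest value of all in CD150neg MPP of mouse 1. In WT mice CD150hi HSC lay above CD150lo HSC without overlap, and it overlapped with CD150neg MPP. The difference between CD150hi HSC and CD150neg MPP was 0.55 in WT (SE 0.17, adjusted p = 0.0323, limma; higher in 5 of 5 mice) and 0.05 in 5A3+/del mice (adjusted p = 0.933; higher in 2 of 4 mice). The difference between genotypes in this step was -0.50 (adjusted p = 0.626, limma). The call was lost when any 1 WT mouse was left out (adjusted p between 0.0607 and 0.12), with FPKM as deposited (0.0788) and after rescaling without mitochondrially encoded genes (log2 difference 0.38, adjusted p = 0.241). With the replicate block H2-Q4, another class I chain, passed in 2 comparisons, at 0.32 for CD150hi HSC against CD150neg MPP in WT mice (adjusted p = 0.0432, limma) and 0.37 for CD150hi against CD150lo HSC in 5A3+/del mice (adjusted p = 0.0392).

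**Figure D3:**
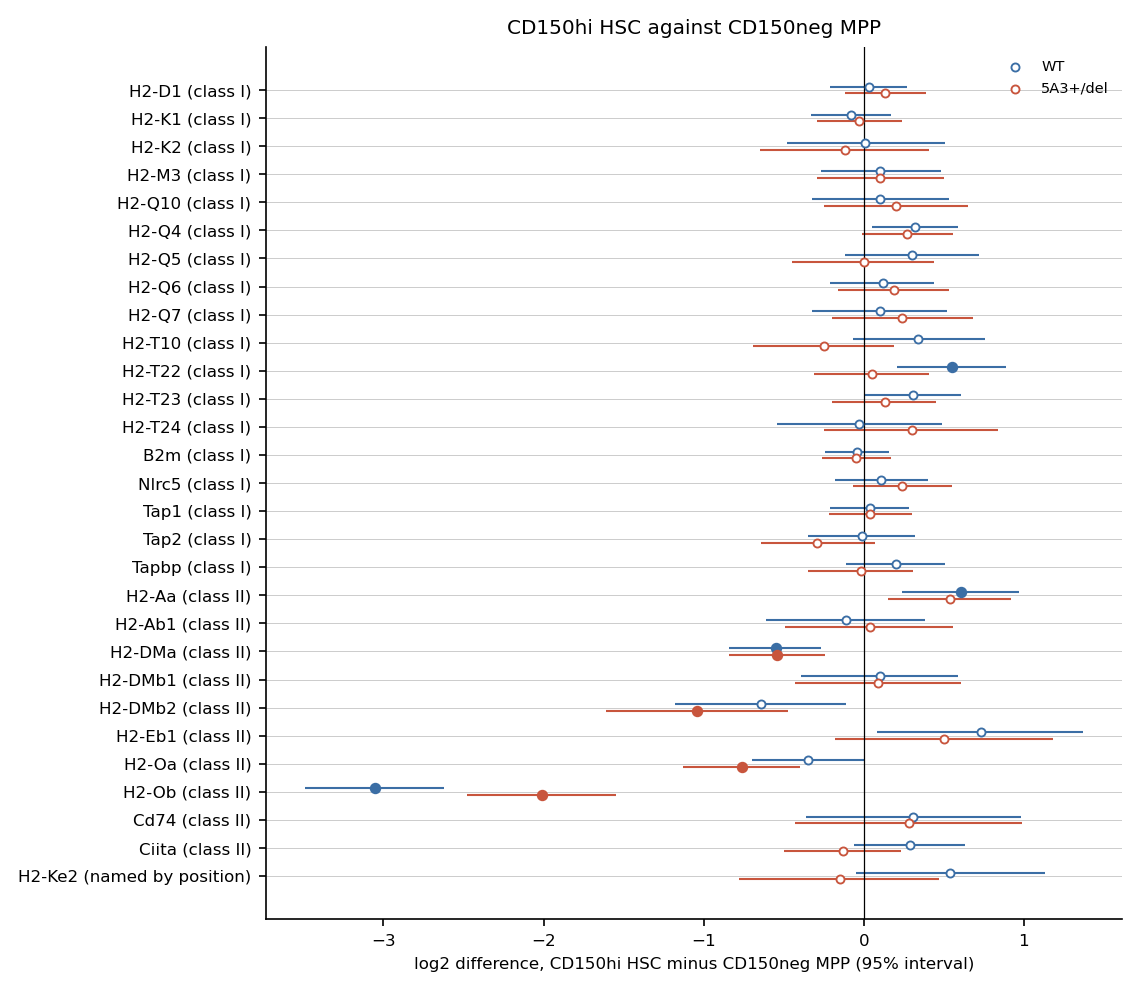
Log2 difference between CD150hi HSC and CD150neg MPP for the 29 members tested, with 95% intervals, by genotype; filled points passed an adjusted p of 0.05. H2-Ob lies at -3.05 in WT and -2.01 in 5A3+/del mice, most class I genes lie near 0, and H2-Aa lies to the right at 0.61 and 0.54.

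Some genes listed as markers of other cell types moved with the populations as well. Of 6 dendritic cell markers, Flt3, which multipotent progenitors are known to gain, averaged 2.86 and 3.29 FPKM in WT and 5A3+/del CD150hi HSC, 29.4 and 30 in CD150lo HSC, and 51.4 and 46.8 in CD150neg MPP. The summed level of this list was 3.17 to 6.44 FPKM in CD150hi HSC, 20.1 to 38.6 in CD150lo HSC and 42.1 to 64.1 in CD150neg MPP, and rested on Flt3. Zbtb46, of the same list, went the other way in WT mice, from 1.89 FPKM in CD150hi HSC to 1.16 in CD150neg MPP. Itgam and Nkg7 were lower in CD150hi HSC too (adjusted p under 0.05 in both genotypes, limma): 1.33 and 3.8 FPKM for Itgam and 7.75 and 9.16 for Nkg7, against 10.1 and 11.6 for Itgam and 29.6 and 42.5 for Nkg7 in CD150neg MPP, WT first. The other tested genes of the monocyte and macrophage list did not pass, and the median log2 difference of its 6 tested genes between CD150hi HSC and CD150neg MPP was 0.14 in WT and 0.23 in 5A3+/del mice, of the opposite sign to Itgam. In WT mice Lyz2 averaged 179 and 172 FPKM in these populations and C1qb 2.33 and 0.266. Of the 5 T and NK cell markers, only Nkg7 (1 of 5) reached the expression filter. Whether cells of these other types were in the sorts was not tested. Nor was their part in the H2-Ob, H2-Oa, H2-DMa and H2-DMb2 differences.

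Genes around the pathway were read from 5 lists of 37 genes, 32 of which were tested. Passing were 2 of 32 in WT and 1 of 32 in 5A3+/del mice between CD150hi and CD150lo HSC, and 3 and 2 of 32 between CD150hi HSC and CD150neg MPP, all lower in CD150hi HSC. Over all genes 3.53%, 3.18%, 10.0% and 6.16% passed in these comparisons, and the list was not tested against them. Ctss, the cathepsin known for trimming the invariant chain, averaged 8.03 and 10.5 FPKM in WT and 5A3+/del CD150hi HSC, 20.9 and 21.3 in CD150lo HSC, and 23.3 and 29.9 in CD150neg MPP. It was lower in CD150hi HSC in both steps and genotypes, by -1.33 (adjusted p = 0.000225, limma) and -1.43 (adjusted p = 2.94e-05) in WT and by -1.01 (adjusted p = 0.00464) and -1.36 (adjusted p = 0.00015) in 5A3+/del mice. Lgmn, another endosomal protease, passed for the first step in WT mice (-0.93, adjusted p = 0.0415, limma). Cd86, a costimulatory ligand, passed against CD150neg MPP in both genotypes (-0.78 and -0.86, adjusted p = 0.0244 and 0.0261, limma), and Creb1, a subunit of the promoter complex, in WT mice (-0.61, adjusted p = 0.00269). None of the 10 genes of class I peptide supply, 6 tested genes of the interferon gamma signal or 4 MHC-like chains passed in any comparison. Between genotypes, 0 of 32 passed in each population, where 0.156%, 0.0324% and 0.0454% of all genes did in CD150hi HSC, CD150lo HSC and CD150neg MPP.

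Between genotypes, no MHC member passed. In CD150hi HSC 0 of 29 passed (0.156% of all genes did), in CD150lo HSC 0 of 29 (0.0324%) and in CD150neg MPP 0 of 29 (0.0454%). At an unadjusted p under 0.05 there were 5, 3 and 1 of 29 members, beside 13.1%, 6.87% and 4.27% of all genes. The interval of the difference lay within 1 log2 unit of 0 for 24, 27 and 27 of the 29 members, and within 0.5 for 13, 13 and 12. For H2-K1 it was 0.02 to 0.52 in CD150hi HSC, -0.05 to 0.45 in CD150lo HSC and -0.04 to 0.49 in CD150neg MPP.

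**Figure D4:**
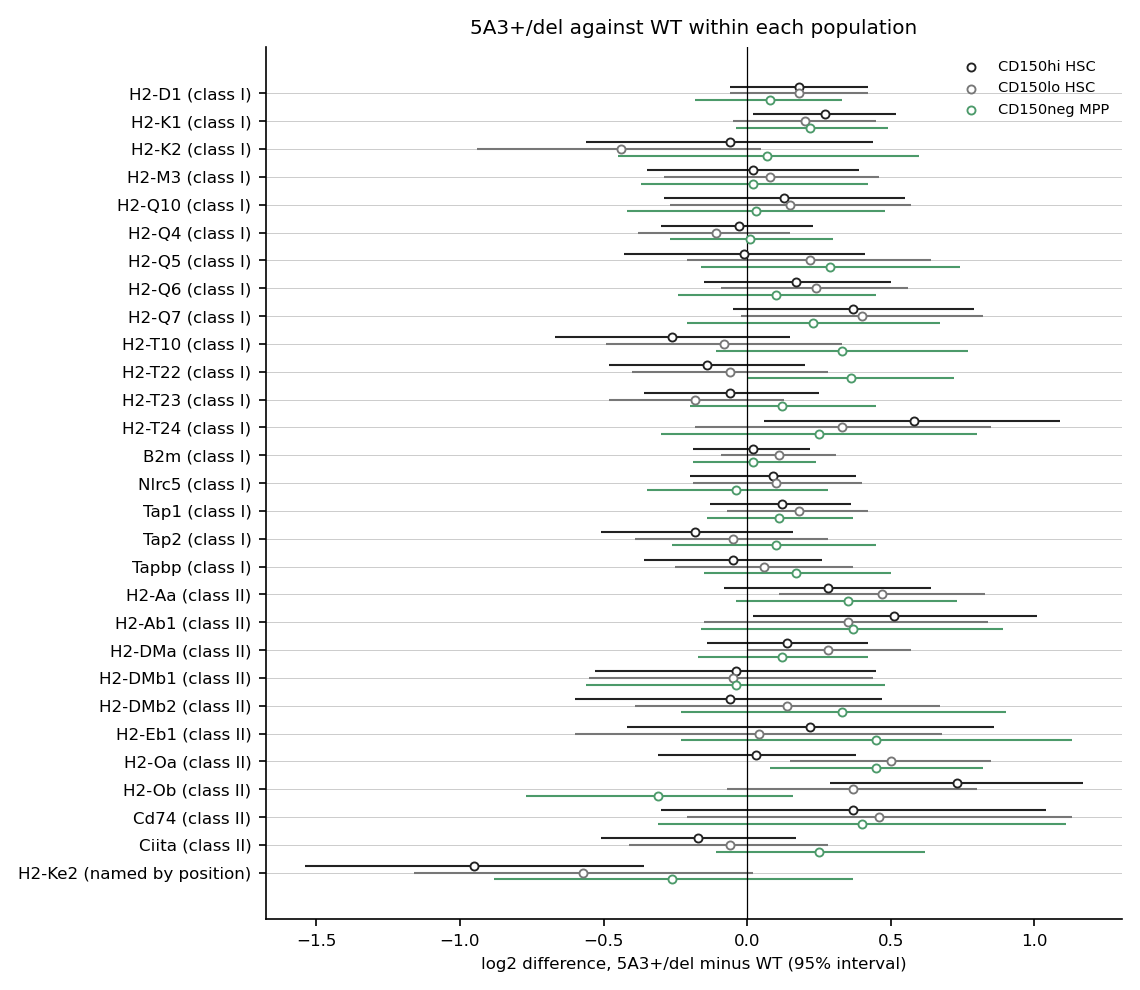
Log2 difference between 5A3+/del and WT for the 29 members tested, with 95% intervals, in each population; no point passed an adjusted p of 0.05. Class II genes lie mostly to the right of 0. To the left lie 3, 2 and 2 of the 10 in CD150hi HSC, CD150lo HSC and CD150neg MPP, furthest H2-Ob in CD150neg MPP (-0.31). H2-Ke2, which belongs to neither class, lies to the left in each population (-0.95, -0.57 and -0.26).

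The member with the smallest p in CD150hi HSC was H2-Ob, higher in 5A3+/del mice by 0.73 (SE 0.21, unadjusted p = 0.00204, adjusted p = 0.126, limma), with 1.72 ± 1.08 FPKM in WT and 3.34 ± 0.778 in 5A3+/del mice (SD, n = 5 each) and overlapping groups. In CD150neg MPP the difference had the other sign (-0.31, 95% interval -0.77 to 0.16). Its change between these populations, tested as an interaction, was 1.04 (95% interval 0.40 to 1.68, unadjusted p = 0.00249, adjusted p = 0.375, limma) and did not pass. H2-Oa had the smallest p in CD150lo HSC (0.50, SE 0.17, unadjusted p = 0.00664, adjusted p = 0.386, limma), where the genotypes did not overlap, and in CD150neg MPP (0.45, SE 0.18, unadjusted p = 0.0186, adjusted p = 1). H2-Ke2, which lies in the region but is not an antigen presentation gene, averaged 11.6 ± 2.45 FPKM for WT and 5.92 ± 3.31 for 5A3+/del mice in CD150hi HSC (SD, n = 5 each; -0.95, SE 0.29, unadjusted p = 0.0028, adjusted p = 0.147, limma).

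Class II estimates leaned to one side. In CD150hi HSC, CD150lo HSC and CD150neg MPP, 7, 8 and 8 of the 10 class II members had a positive estimate, with medians of 0.18, 0.31 and 0.34 on the log2 scale, where 50.7%, 52.0% and 49.8% of all genes were positive and their medians were 0.00, 0.01 and -0.00. For class I the counts were 10, 12 and 17 of 18 and the medians 0.02, 0.11 and 0.11. The 3 populations come from the same mice, and these counts carry no test. Beside these values, the median log2 difference of 5 granulocyte genes was -3.14, -0.55 and 0.12 in the 3 populations, and none of the 5 passed. S100a8 averaged 169 FPKM in CD150hi HSC of WT mice and 17.8 FPKM in those of 5A3+/del mice. Their part in the class II estimates was not tested. Rescaling without mitochondrially encoded genes moved the median of all genes by 0.20 in CD150hi HSC and 0.13 in CD150lo HSC, and the class II medians to 0.40 and 0.44. Without both mice numbered 1, which was tried after seeing the data, the class II median in CD150hi HSC was 0.06.

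None of the interaction contrasts, which ask whether a step between populations differs by genotype, had a member past the threshold (0 of 29 each, limma). Over all genes 0 passed as well (0%), with 614, 771 and 1227 of 15409 at an unadjusted p under 0.05 (3.98%, 5.00% and 7.96%). Among the members 0, 1 and 2 of 29 reached an unadjusted p under 0.05 for CD150hi to CD150lo HSC, CD150lo HSC to CD150neg MPP and CD150hi HSC to CD150neg MPP. The members concerned were H2-Ob in the second (0.68, unadjusted p = 0.039, adjusted p = 0.96, limma), and H2-Ob and H2-T22 in the third. For the step from CD150lo HSC to CD150neg MPP in 5A3+/del mice the smallest p was that of H2-K2, listed as a pseudogene (-0.52, adjusted p = 0.981, limma).

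The mice numbered 1 stood high in many members. The libraries of the mice numbered 1 in both genotypes held the highest value of their group in 31 of 54 gene and library combinations of class I for WT mouse 1 (57.4%) and 41 of 54 for 5A3+/del mouse 1 (75.9%), where 24.3% and 27.4% of all gene and library combinations of these mice were the highest. For class II the counts were 15 and 14 of 30. Cd74 was at 71.9 to 127 FPKM (median 110) in the 6 libraries of these mice and at 28.1 to 112 FPKM (median 54.3) in the other 23. The neutrophil gene S100a8 was at 76.5 to 737 FPKM in WT mouse 1 and at 0 to 11.5 in 5A3+/del mouse 1, so that it was high in only one of them. For the interferon gamma signal list the counts were 6 and 5 of 18. The labels give both mice an age of 13.28 weeks, as they do WT mice 2 and 3. The part of these mice in the results was not tested beyond leaving them out.

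**Figure D5:**
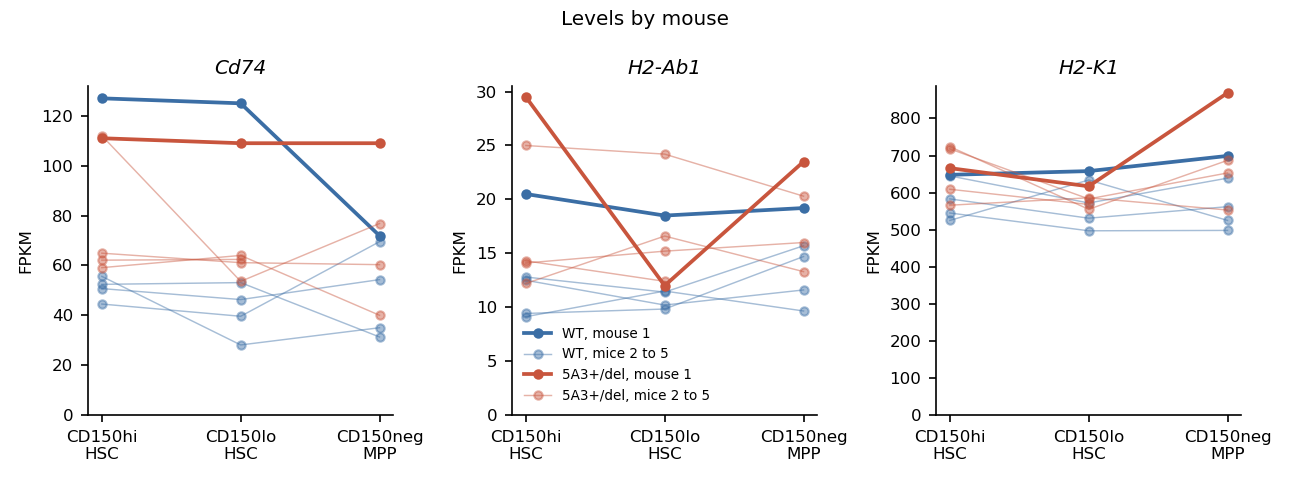
FPKM of Cd74, H2-Ab1 and H2-K1 in each mouse over the 3 populations; lines join libraries of 1 mouse, thick lines are the mice numbered 1. Cd74 of these mice lies at 71.9 to 127 FPKM, above most of the other mice.

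The remaining 19 members stayed under the filter and were not tested in the main fit. Their highest values were between 0.0243 and 0.887 FPKM, and 7 of them did not exceed 3 fragments in any library. H2-Ea-ps, the defective Ea gene, was at 0 in 24 of 29 libraries with at most 1 fragment. H2-Eb2 reached 0.887 FPKM (76 fragments) and was at 0 in 12 libraries. The 6 genes from H2-M10.1 to H2-M10.6, class I chains known from the vomeronasal organ, had at most 4 fragments. H2-Q1 (67 fragments at most), H2-M5 (59), H2-T3 (45) and H2-M2 (32) gave more, but no library reached 1 FPKM. With a looser filter (above 0 in at least 1 library), H2-T3 passed for CD150hi HSC against CD150neg MPP in 5A3+/del mice (0.36, adjusted p = 0.0199, limma). Its values there were 0.13 to 0.622 FPKM against 0 to 0.0969 FPKM.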

How the data were processed

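RNA of sorted cells was amplified (NuGen Ovation) and sequenced from TruSeq libraries, which keep no strand. Per the submitters' processing notes, reads were aligned to mm9 with Bowtie 0.12.2 and counted with HTSeq, and the authors deposited FPKM per gene. How reads that map to several places were treated is not given in the sources used here. Groups came from the sample labels. Genes at 1 FPKM or more in at least 4 of 29 libraries (15409 of 30025, 51.3%) were quantile normalized as log2(FPKM + 1), with a pseudocount of 1, a scale that understates changes of low genes. limma 3.58.1 (R 4.3.3) fitted 6 group means and 12 two-sided contrasts, with Benjamini-Hochberg adjustment over all genes tested and a threshold of 0.05. P-values rest on the spread between libraries within a group, pooled over the 6 groups and moderated across genes. Libraries of 1 mouse were treated as independent in it. The main fit held no term for the mouse, so comparisons of populations were unpaired in it. The replicate block is the paired alternative for these. Because values are FPKM, no count test was run. Fragments were estimated from FPKM times exon length, whose low values were whole multiples of 1 step in each library for 98.4 to 98.91% of values (tolerance 0.05), and cover counting error only. One marker, and the sum of its list, is not reported here. The members and lists were chosen with earlier results of these data known. By rule, values of every library are given for H2-K1, H2-D1, B2m, H2-Aa, H2-Ab1, H2-Eb1, Cd74, Ciita and every member past the threshold, and group means for the other named members. Without a called member, the smallest p is given. Libraries of 1 mouse share a number across populations, and their deviations correlated weakly (median r 0.0786, 10 of 28 pairs above 0.1). Pairs from different mice of 1 genotype and different populations correlated less (median r -0.025, 2 of 112 above 0.1). For mice of the same number in the other genotype, within a population, the median r was 0.0345 (0 of 14 above 0.1). Tested on simulated data for 5A3+/del against WT in CD150hi HSC (15409 genes), the fit found 155 of 200 genes changed by 1 log2 unit, with 3 false calls. The changed genes were drawn from those of higher mean level, so the rate does not cover low members such as Ciita and H2-DMb2. The simulated noise was independent between libraries, also those of the same mouse.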

Additional observations from a re-analysis of the deposited data

Results flagged for a closer look

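In 16 of 174 groups of libraries, a single library stood well apart from the rest, and chance flags about 1 in 20 groups (8.7 expected). Of these libraries, 8 came from WT mouse 1 and 6 from 5A3+/del mouse 1.

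In WT mouse 1, Cd74 was at 127 FPKM in CD150hi HSC (44.5 to 55.6 in the others) and 125 FPKM in CD150lo HSC (28.1 to 53.1). H2-Aa was at 48.2 FPKM in its CD150hi HSC (23.3 to 30 in the others). In its CD150lo HSC, H2-Ab1 was at 18.5 FPKM, H2-Eb1 at 18.8 FPKM and H2-K2 at 14.5 FPKM, each the highest. In its CD150neg MPP, Tap1 was at 22.1 FPKM (15.3 to 16.5 in the others) and Tap2 at 9.57 FPKM (5.69 to 6.57).

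In 5A3+/del mouse 1, CD150hi HSC had the highest H2-Aa (45.6 FPKM), H2-DMa (58.3 FPKM) and H2-Eb1 (27 FPKM) and the lowest Ciita (0.158 FPKM, 0.843 to 1.07 in the others). Its CD150lo HSC had the highest Cd74 (109 FPKM) and H2-M3 (28.8 FPKM).

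The other flags were low values of mice numbered 4: H2-Q5 (an identifier annotated as H2-Q8) at 32.8 FPKM in 5A3+/del CD150hi HSC (46.3 to 49.3 in the others) and H2-T10 at 2.86 FPKM in WT CD150neg MPP (4.39 to 4.61).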

How the results depend on the processing

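The counts of members past the threshold stayed at 0 for the genotype (21 alternatives each), for CD150lo HSC against CD150neg MPP and for the interactions (20 each). For CD150hi against CD150lo HSC in WT mice the count was 1, and 2 with the replicate block. For the populations and interactions the block was the mouse, and it changed no calls other than those of H2-Aa, H2-DMa and H2-Q4. For the genotype comparisons the block was the number, which pairs WT and 5A3+/del mice by their number alone. For CD150hi HSC against CD150neg MPP in WT mice the count was 4, but 2 with FPKM as deposited and 2 with only the groups compared, and it was 1 to 4 with 1 mouse left out (1 without WT mouse 4, and 2 without mouse 3 or 5). Without both mice numbered 1, an alternative added after seeing the data, it was 5. In 5A3+/del mice, CD150hi against CD150lo HSC gave 1 to 2 with 1 mouse left out (1 without mouse 1 or 2). CD150hi HSC against CD150neg MPP gave 2 with only the groups compared and 2 to 5 with 1 mouse left out (2 without mouse 1 or 3). The cause of these changes was not tested, apart from the fewer samples. No difference reversed, and the 4 H2-Ob calls passed in all 20 alternatives (highest adjusted p 0.00172, limma). Over all genes, the genotype calls ran from 0 to 100 in CD150hi HSC (24), 0 to 77 in CD150lo HSC (5) and 0 to 8 in CD150neg MPP (7). Those of CD150hi against CD150lo HSC ran from 292 to 628 for WT (544) and, for 5A3+/del mice, from 315 to 602 (490), and those against CD150neg MPP from 1031 to 1783 (1548) and 451 to 1036 (949). CD150lo HSC against CD150neg MPP gave 0 to 72 for WT (29) and, for 5A3+/del mice, 0 to 6 (6). H2-DMb2 was not tested with the floor of 5 FPKM. Ciita and H2-DMb2 lie near the filter, where few fragments limit precision.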
